A study of Sus scrofa with 23 samples.

Results

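The genes described here encode proteins of the mitochondrial ribosome in the pig. They were taken as every gene of the count table whose Ensembl symbol starts with MRPL or MRPS. This gave 64 of 25880 genes, 40 named for the large subunit (MRPL) and 24 for the small subunit (MRPS). Only 14857 identifiers of the table had a symbol, so any gene of the family without one is missing. The other lists of named genes were matched by symbol as well, and several of them are partial. RNA of the prefrontal cortex was sequenced after poly-A selection in 23 adolescent female pigs of 20 kg, 1 library per animal. Awake animals received 1 intravenous dose of 0.08 mg/kg psilocybin, a serotonergic psychedelic, or saline, and were killed with pentobarbital 1 day or 1 week later. The groups were psilocybin 1 day (n = 6), saline 1 day (n = 5), psilocybin 1 week (n = 6) and saline 1 week (n = 6), all of Danish slaughter pigs. The labels also divide the animals into batch 2 (12 libraries) and batch 1 (11 libraries), both present in every group, without saying what a batch is.

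Mitochondria keep a ribosome of their own, which translates the few proteins still encoded by mitochondrial DNA, all of them core subunits of the respiratory chain and the ATP synthase. Its RNA is made inside the organelle, whereas all of its proteins are encoded in the nucleus, translated in the cytosol and imported. Neurons depend strongly on oxidative phosphorylation, and inherited variants in several of these genes cause mitochondrial disease in humans. Some members have a close relative among bacterial ribosomal proteins, and others are particular to mitochondria. The names follow history: MRPS18A and MRPS30 are placed in the large subunit in structures of mammalian mitoribosomes, and they are counted here by name.

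Library totals ranged between 9504421 and 18654626 counts. All 64 members passed the filter on low counts, together with 15049 genes in all, and members held between 23 and 2469 counts in a library. Their summed share of a library lay between 0.188% and 0.263%, with a median of 0.212%. An animal is written as S for saline or P for psilocybin before the submitters' number. The first principal component of all tested genes, computed after removal of batch, held 21.3% of the variance. The 3 highest libraries on it were S420 (saline 1 day, 40.1), S245 (saline 1 week, 37.8) and P427 (psilocybin 1 week, 28.3). P255 (psilocybin 1 day) came next at 20.1, so setting apart these 3 libraries was a choice and not a clear break. The main results for the members are given with and without them. Of 9 neuron markers matched in the table, 9 were detected, with a summed level of 9464 to 11320 CPM (counts scaled to a common library size) over the libraries.

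The members were spread over 17 chromosomes, with 8 on chromosome 3 and 7 each on chromosomes 2 and 12, and 1 on an unplaced scaffold. A gene on the opposite strand started within 1000 bases of the start of 23 members, head to head (35.9%), against 1903 of the 15049 tested genes (12.6%). It started upstream for 13 of the 23 (20.3% of members, against 7.12% of tested genes) and inside the member for the other 10. One upstream pair consists of 2 members, one of each subunit name: MRPS11 (ENSSSCG00000037343; chromosome 1, 191306305 to 191321638, minus strand, susScr11) and MRPL46 (ENSSSCG00000005105; chromosome 1, 191321999 to 191331319, plus strand) start 361 bases apart. The seryl-tRNA synthetase gene of mitochondria, SARS2, also started upstream of MRPS12, which encodes a protein of the decoding region. NDUFB5, a subunit of respiratory complex I, started 77 bases from MRPL47. Exons of 24 members overlapped those of another gene, with same-strand overlap for 6 and opposite-strand overlap for 21. Counting ignored the strand, so reads of such neighbours cannot be told apart from those of the member.

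Most members were expressed above the median gene. The median member reached 13.4 CPM per kilobase of exon, against 5.78 for all tested genes, and 57 of 64 members lay above that value. By name, the large subunit had a median level of 14.6 and the small subunit one of 12.7 CPM per kilobase. Nuclear genes of the respiratory chain, whose partner subunits the mitoribosome makes, had a higher median level of 55.4 CPM per kilobase, and cytosolic ribosomal protein genes one of 99.2. The machinery around the mitoribosome was lower, with median levels of 9.48 CPM per kilobase for mitochondrial translation factors, 6.81 for mitoribosome assembly factors and 4.75 for mitochondrial aminoacyl-tRNA synthetases. These levels were compared as descriptions, without a test.

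Between the highest and the lowest member the mean level per kilobase differed 17.3-fold. The highest was MRPS26, a mitochondria-specific protein of the small subunit, at 56.9 ± 8.50 CPM per kilobase (SD, n = 23). MRPL37, a mitochondria-specific protein of the large subunit, followed at 38.9 ± 8.17. MRPL49 stood at 35.0 ± 7.96, and its exons overlap those of FAU and SYVN1 on the other strand. MRPS2, a relative of bacterial S2, had 33.8 ± 6.70 and MRPS18A, a relative of bacterial S18, had 32.4 ± 6.66. At the other end stood MRPS30 with 3.29 ± 0.311, MRPS14 with 3.51 ± 0.762, MRPS7 with 4.32 ± 0.575, MRPS18C with 4.49 ± 0.468 and MRPL19 with 4.63 ± 0.499 CPM per kilobase. Neighbours among these 5 highest and 5 lowest lay within 1 SD of each other, with 2 exceptions. The mean of MRPS26 exceeded that of MRPL37, and the mean of MRPS7 that of MRPS14, by more than the SD of either. MRPS18A and MRPS18C are paralogs that both descend from the bacterial S18 protein, and they stood near opposite ends of the order. The length used is that of all annotated exons merged, so a gene with long rarely used exons gets a low value. Besides MRPL49, exons of MRPL37, MRPS18A, MRPS7 and MRPS18C overlap those of another gene on the other strand.

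**Figure D1:**
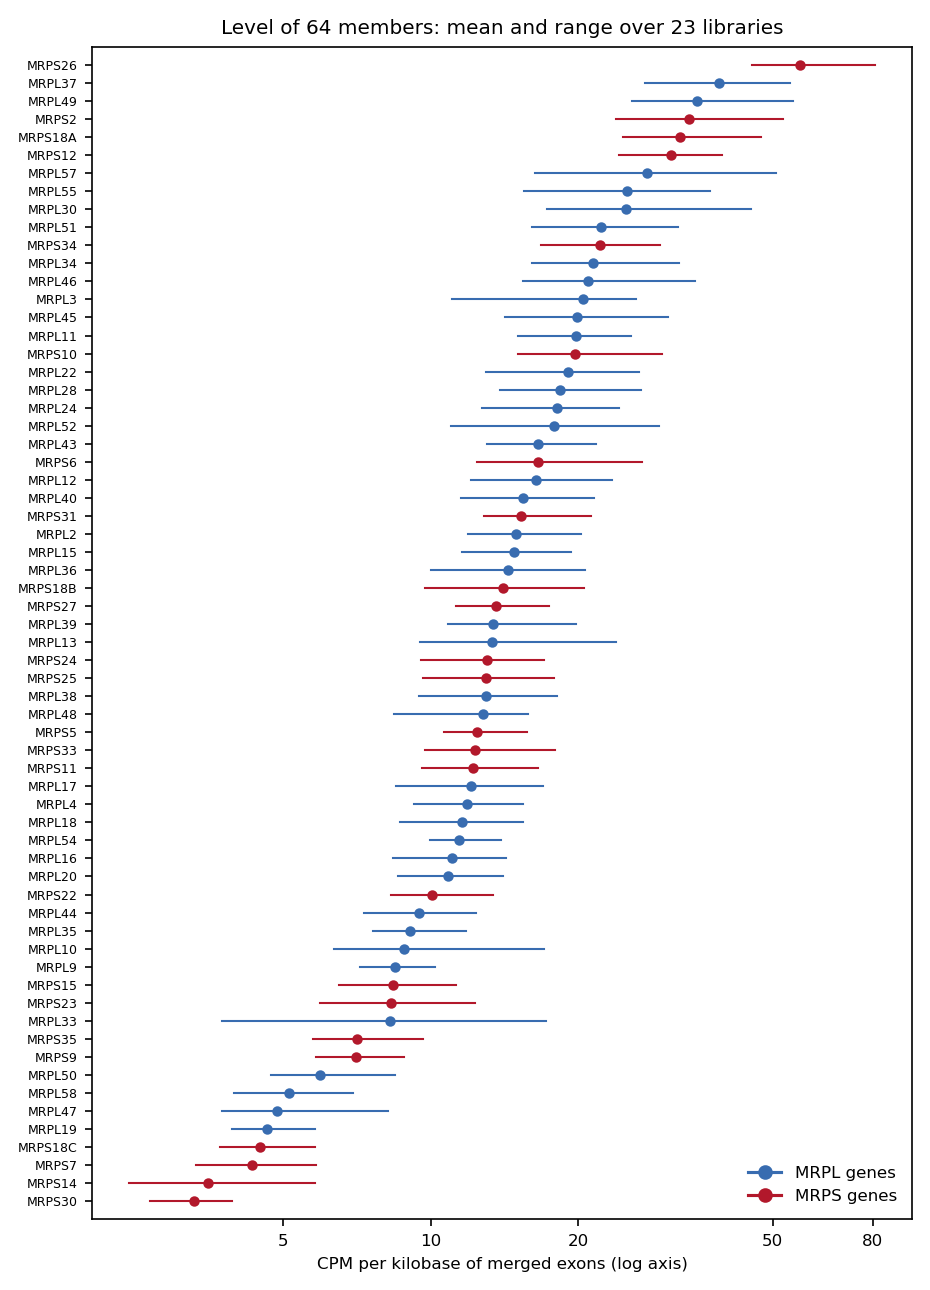
Level of each of the 64 members in CPM per kilobase of merged exons (log axis). Points are means and lines run from the lowest to the highest of 23 libraries, with MRPL genes in blue and MRPS genes in red. MRPS26 stands highest at 56.9 and MRPS30 lowest at 3.29, and both subunit names are spread over the whole range.

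Once group and batch were removed, the median member had an SD between animals of 0.212 on the log2 CPM scale, against 0.225 for all tested genes. The steadiest were MRPS9 (0.099), MRPS18C (0.121) and MRPL35 (0.125), relatives of bacterial S9, S18 and L35. The most variable were MRPL33 (0.445), MRPL57 (0.404), MRPL10 (0.369), MRPL52 (0.333) and MRPL30 (0.326). MRPL33, a relative of bacterial L33 and one of the shortest members at 526 bases, also had the fewest counts, from 23 to 128 per library. MRPL10, which anchors the stalk that binds translation factors, varied at a higher level, between 156 and 473 counts per library.

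Much of the variation was shared, and it followed a few animals. A member score was formed as the mean over the 64 members of log2 CPM relative to the mean of all 23 libraries. Its highest values were 0.43 in saline 1 day animal S420, 0.33 in saline 1 week animal S245, 0.21 in psilocybin 1 week animal P427 and 0.20 in psilocybin 1 day animal P255. Animal S420 alone had the highest CPM of all 23 libraries for 32 of the 64 members. Genes for other multi-protein machines were high in the same libraries: the score of the nuclear respiratory chain was 0.56 in animal S420, 0.47 in animal S245 and 0.30 in animal P427, and that of the cytosolic ribosomal proteins was 0.87, 0.66 and 0.38 in the same order. So were short genes at large. The median over all genes of up to 1000 bases was 0.16 in animal S420, 0.17 in animal S245 and 0.12 in animal P427 on the same scale, while that of genes over 4000 bases was -0.10, -0.13 and -0.03. Other libraries were as high for short genes: 0.15 in psilocybin 1 week animal P246, 0.14 in saline 1 day animal S256 and 0.13 in animal P255. Their member scores were 0.14, 0.09 and 0.20. The part of gene length in the member score was not tested.

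The mean score was -0.03 ± 0.15 in psilocybin 1 day and 0.04 ± 0.27 in saline 1 day animals, and -0.01 ± 0.16 in psilocybin 1 week and 0.01 ± 0.19 in saline 1 week animals (SD, n = 6, 5, 6 and 6). These means differed by less than the spread within each group. Within batch 2, the psilocybin mean minus the saline mean was -0.16 at 1 day and 0.09 at 1 week, and within batch 1 it was -0.01 and -0.14. Without the 3 libraries the same differences were 0.05 and -0.03 in batch 2 and -0.01 and -0.05 in batch 1.

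**Figure D2:**
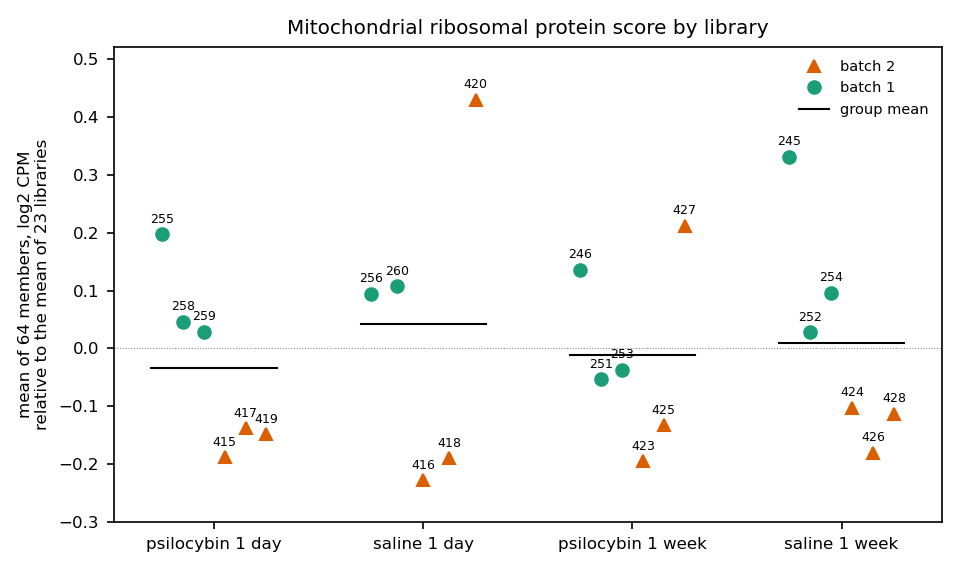
Member score (mean of 64 members, log2 CPM relative to the mean of 23 libraries) of each library, by group. Triangles are batch 2, circles batch 1, black lines group means and the small numbers animal numbers. Animals S420 and S245, both given saline, stand highest at 0.43 and 0.33, and most batch 2 libraries lie below all batch 1 libraries.

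The first question was whether psilocybin changed these genes 1 day after the dose. No member passed the test: 0 of 64 were called with edgeR's quasi-likelihood test and Benjamini-Hochberg adjustment over all genes (adjusted p under 0.05), where 0 of 15049 genes were called (0%). DESeq2 and limma-voom called 0 members as well. At an unadjusted p under 0.05 there were 3 members (4.69%) and 2.83% of all genes, and these 3, MRPS18C, MRPL35 and MRPL39, had negative log2 fold changes. Of the 64 log2 fold changes, psilocybin over saline, 58 were negative and 6 positive, with a median of -0.10 against 0.00 for all genes. By name the median was -0.10 for the large subunit (36 of 40 negative) and -0.08 for the small subunit (22 of 24 negative).

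That lean rested on 1 saline animal. Without saline 1 day animal S420 the median log2 fold change was 0.02, with 26 members negative and 38 positive. It was -0.19 in batch 2 alone, which holds that animal, and -0.01 in batch 1 alone. For 49 members animal S420 was the highest of the 5 saline 1 day libraries. For no member did the psilocybin and saline libraries fail to overlap, against 19 of all tested genes. Animal S420 also had the highest oligodendrocyte marker level of all libraries. The sum of the 7 markers matched, with no marker at 0 throughout, ran between 6663 and 12598 CPM in psilocybin 1 day and between 3793 and 21276 CPM in saline 1 day animals. As a score formed like the member score, oligodendrocyte markers stood at 0.88 in animal S420 and at -0.12 in animal P427. The next highest score, 0.59, was that of saline 1 week animal S428, whose member score was -0.11. Endothelial and mural markers had their lowest score of all libraries, -0.58, in animal S420. The part of cell composition in these values was not tested, and in bulk tissue fewer cells of a type and less RNA per cell cannot be told apart.

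**Figure D3:**
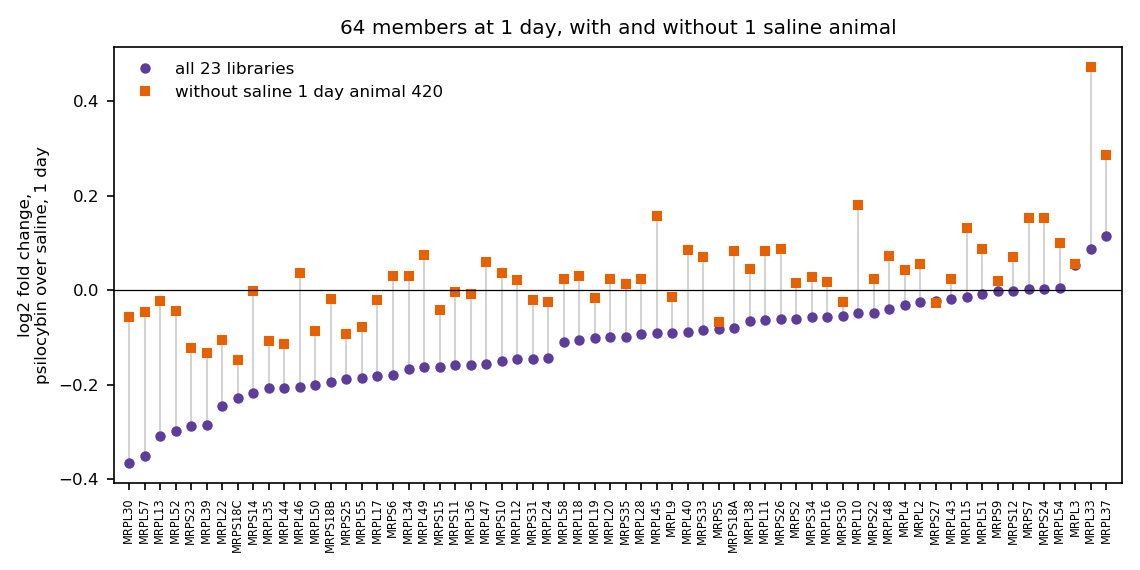
Log2 fold change of each of the 64 members, psilocybin over saline at 1 day, ordered by its value. Circles use all 23 libraries and squares leave out saline 1 day animal S420. Of the circles 58 lie below 0, and of the squares 26.

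MRPS18C (ENSSSCG00000038042; chromosome 8, 135017007 to 135026724, minus strand) encodes a small subunit protein, and had the smallest p at 1 day. Its CPM ran between 15.1 and 17.7 with a median of 16.7 in psilocybin animals, against 17.2, 17.8, 18.3, 19.8 and 23.6 in saline animals. The psilocybin values lay at the low end, and only the lowest saline value fell inside their range. The log2 fold change was -0.23 ± 0.09 (SE; 95% interval -0.41 to -0.05), with an adjusted p of 0.9996 by edgeR, and -0.15 without animal S420. Its exons overlap those of HELQ and ABRAXAS1 on the other strand.

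MRPL39 (ENSSSCG00000012021; chromosome 13, 189114528 to 189198715, minus strand) is a mitochondria-specific protein of the large subunit and a human disease gene. Its CPM lay between 23.8 and 29.8 with a median of 26.2 in psilocybin 1 day animals, against 28.1, 28.9, 28.9, 29.0 and 43.6 in saline 1 day animals. Only the highest psilocybin library reached the range of the saline values, and animal S420 gave the value of 43.6. The log2 fold change was -0.29 ± 0.12 (SE; edgeR adjusted p = 0.9996), and -0.13 without that animal. The exons of MRPL39 overlap those of JAM2 on the other strand.

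MRPL35 (ENSSSCG00000021746; chromosome 3, 58559521 to 58575060, minus strand) ran between 30.2 and 37.0 CPM with a median of 32.9 in psilocybin 1 day animals, against 34.0, 34.2, 34.3, 42.5 and 46.8 in saline 1 day animals. The 2 higher psilocybin libraries lay above the 3 lower saline ones. The log2 fold change was -0.21 ± 0.08 (SE; edgeR adjusted p = 0.9996) and -0.11 without animal S420. The exons of MRPL35 overlap those of IMMT on the other strand. Among the next members by p, MRPL30, a relative of bacterial L30, had 22.99 to 37.2 CPM with a median of 28.6 in psilocybin animals, against 23.7, 27.4, 30.8, 40.0 and 60.0 in saline animals. The psilocybin range held 3 of the 5 saline values, and the log2 fold change of -0.37 ± 0.19 became -0.06 without animal S420. MRPS23 had a log2 fold change of -0.29 ± 0.15, and -0.12 without animal S420. MRPL22, whose bacterial relative lines the exit tunnel, had one of -0.25 ± 0.13, and -0.11 without that animal.

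The lists of partner genes gave no call at 1 day either. Log2 fold changes were negative for 53 of 57 nuclear respiratory chain genes (median -0.20) and for 45 of 46 cytosolic ribosomal protein genes (median -0.23). Without animal S420 these counts were 31 of 57 (median -0.01) and 0 of 46 (median 0.09). The machinery around the mitoribosome leaned less, with 9 of 16 translation factors (median -0.05) and 12 of 21 assembly factors (median -0.02) negative. Of the aminoacyl-tRNA synthetases, 13 of 21 were negative (median -0.03). Counts without animal S420 were not computed for these lists, and the translation factors had their highest score, 0.23, in that animal. The 2 assembly factors with the smallest p, GTPBP10 and NOA1, both GTPases, had log2 fold changes of -0.28 ± 0.15 and 0.22 ± 0.12. MTFMT, which formylates the initiator methionyl-tRNA of mitochondria, had -0.21 ± 0.11. Regulators of mitochondrial biogenesis had a median of 0.03 over 9 genes, and the 12 genes of mitochondrial DNA transcription and replication one of 0.01. Of 6 genes listed as mitoribosomal under other names, 5 were negative (median -0.17). The list includes KGD4 (-0.39 ± 0.17) for its former name MRPS36, not as an established part of the mitoribosome. Of 13 members known as human disease genes, 11 were negative (median -0.15). The 13 genes encoded by mitochondrial DNA, the products that mitoribosomes translate, had a median of -0.06 with 12 negative. For the otherwise named, disease and mitochondrially encoded lists, counts without animal S420 were not computed. Their scores in that animal were 0.36, 0.39 and 0.50, each the highest of all libraries, so these leans may also rest on it.

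At 1 week after the dose 0 of 64 members were called (edgeR, adjusted p under 0.05; 0% of the 15049 genes), and DESeq2 and limma-voom called 0. At an unadjusted p under 0.05 there were 0 members and 300 of all genes. Of the log2 fold changes, psilocybin over saline, 25 were positive and 39 negative, with a median of -0.02. Without the 3 libraries 18 were positive and 46 negative, with a median of -0.05. The median was -0.09 without psilocybin 1 week animal P427, 0.03 without saline 1 week animal S245 and 0.11 in batch 2 alone. No member separated psilocybin from saline libraries, against 7 of all genes.

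MRPL10 had the smallest p at 1 week. Its CPM ran between 15.8 and 25.2 with a median of 17.3 in psilocybin animals, against 16.7 to 41.0 with a median of 19.9 in saline animals. The groups overlapped except for the value of 41.0, which came from animal S245. The log2 fold change of -0.29 ± 0.20 (SE; edgeR adjusted p = 0.99998) was -0.06 without it, and 0.11 in batch 2 alone. MRPS26, the member with the highest level, had 57.2 to 75.3 CPM with a median of 63.9 in psilocybin 1 week animals, against 67.4 to 87.5 with a median of 70.6 in saline 1 week animals. Its log2 fold change was -0.16 ± 0.11. MRPS2 had a log2 fold change of -0.18 ± 0.13, MRPS18C one of -0.11 ± 0.08, MRPL16 one of 0.14 ± 0.12 and MRPS9 one of -0.08 ± 0.07. Partner lists lay near 0, with medians of -0.01 for the nuclear respiratory chain, -0.02 for cytosolic ribosomal proteins, 0.00 for translation factors and -0.05 for aminoacyl-tRNA synthetases. The 13 genes of mitochondrial DNA were all negative, with a median of -0.12 and 0 called.

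The difference between the psilocybin effects at 1 week and at 1 day was tested directly. It gave 0 calls among the members and 0% of all genes (edgeR, adjusted p under 0.05), with 0 members and 304 of all genes at an unadjusted p under 0.05, and DESeq2 and limma-voom called 0 members. The difference was positive for 52 members, with a median of 0.10, and this median was -0.03 without saline 1 day animal S420. The smallest p values belonged to MRPL22 (0.32 ± 0.19), MRPL39 (0.27 ± 0.16), MRPL35 (0.18 ± 0.12), MRPL52 (0.40 ± 0.27), MRPS18B (0.30 ± 0.21) and MRPL50 (0.23 ± 0.16, all log2 ± SE). In batch 1 alone 4 of these 6 were negative. Between 1 week and 1 day edgeR called 0 members and 0% of all genes within either treatment, with 0 members at an unadjusted p under 0.05 (3.18% of all genes within psilocybin, 2.01% within saline). DESeq2 called 0 members and 1 gene in each. The median log2 fold change, 1 week over 1 day, was 0.03 within psilocybin and -0.07 within saline, and the saline value was 0.06 without animal S420. These comparisons share animals with those above and are not further evidence.

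The labelled batch was the one factor with called members. With edgeR's quasi-likelihood test, 25 of 64 members (39.1%) were lower in batch 2 than in batch 1, against 16.8% of all tested genes called lower. Only MRPL3 (1 of 64) was called higher, against 16.1% of all genes. The median log2 fold change, batch 2 over batch 1, was -0.20 for the members and -0.02 for all genes, and 54 members were negative. The calls covered both subunit names, with 17 of 40 large and 8 of 24 small subunit members lower. A lower mean log2 CPM in batch 2 in all 4 groups at once was found for 37 members, among them 24 of the 25 called lower. The calls were made on these same libraries, so this is no further evidence, and the share over all genes was not computed. For no member did the libraries of the batches fail to overlap, against 82 of all genes.

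MRPS9 had the smallest p. Its CPM ran between 25.03 and 32.2 with a median of 27.4 in batch 2, against 30.0 to 38.0 with a median of 32.4 in batch 1. The ranges overlapped only between 30.0 and 32.2, and the log2 fold change was -0.24 ± 0.05 (SE; edgeR adjusted p = 0.0016). MRPL55 (ENSSSCG00000029050; chromosome 2, 51239024 to 51247521, minus strand), a mitochondria-specific protein of the large subunit, fell furthest among the called members. It had 46.1 to 85.8 CPM with a median of 62.7 in batch 2, against 72.1 to 110.6 with a median of 85.2 in batch 1, and a log2 fold change of -0.42 ± 0.09 (edgeR adjusted p = 0.0018). MRPL12, the stalk protein that contacts translation factors, had 53.1 to 96.8 CPM with a median of 60.3 in batch 2, against 61.8 to 103.1 with a median of 79.8 in batch 1. Its log2 fold change was -0.38 ± 0.10 (edgeR adjusted p = 0.0054). Also among the 10 smallest p values were MRPL24 (-0.38), MRPL28 (-0.36), MRPL38 (-0.34), MRPS15 (-0.34), MRPS11 (-0.32), MRPS25 (-0.31) and MRPS34 (-0.30). Their edgeR adjusted p lay between 0.0031 and 0.0079. Exons of MRPL55, MRPL28, MRPL38 and MRPS34 overlap those of another gene on the same strand, and exons of MRPL24 those of METTL25B on the other strand. Reads of these genes may therefore be part of the values. Of the head-to-head pair, MRPS11 was called, and its neighbour MRPL46, at -0.17 ± 0.12, was not. Without the 3 libraries both were called lower, MRPS11 at -0.37 and MRPL46 at -0.28 (edgeR adjusted p = 0.00019 and 0.0013).

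**Figure D4:**
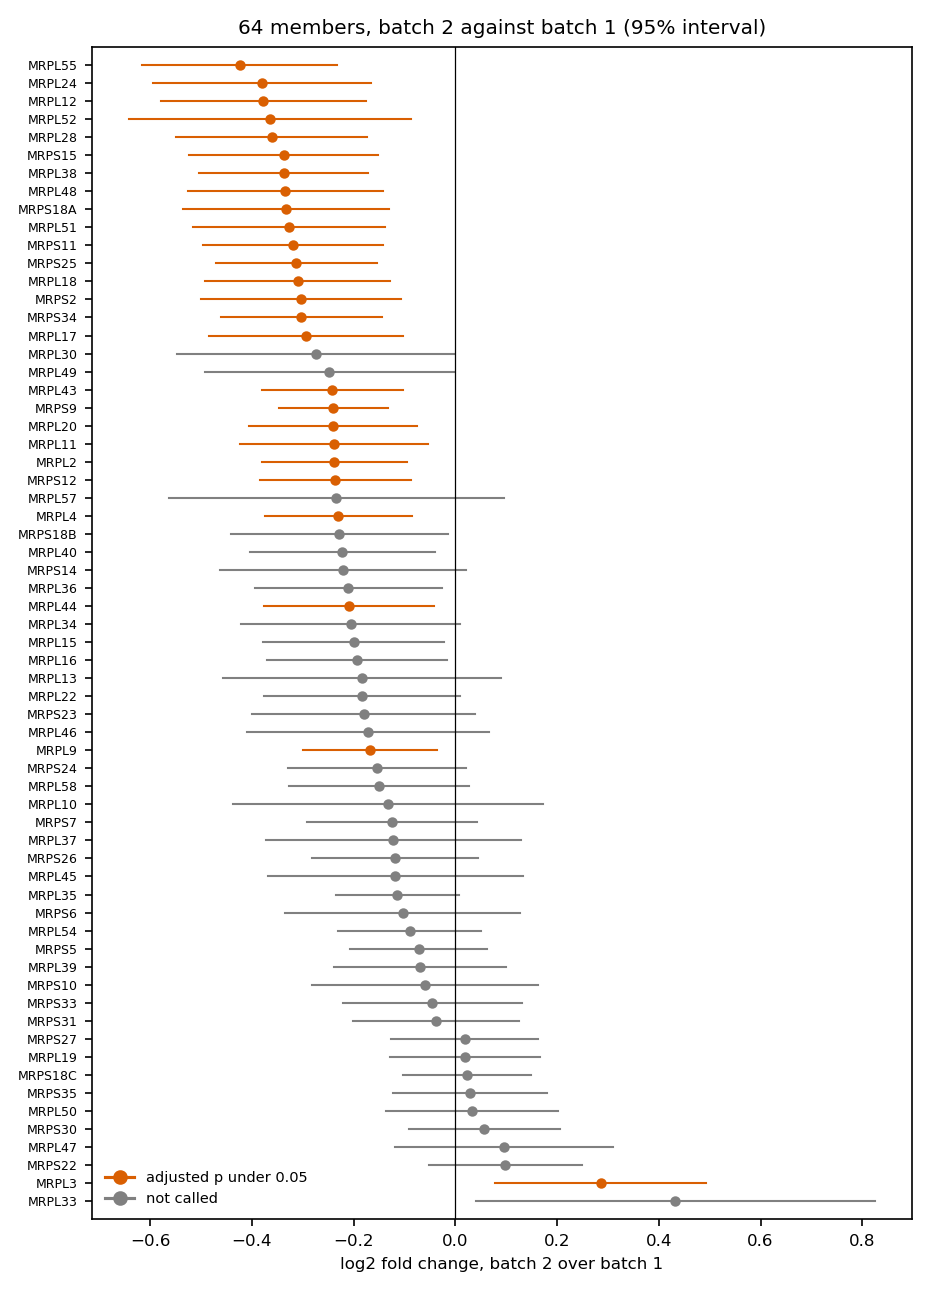
Log2 fold change of each of the 64 members, batch 2 over batch 1, with its 95% interval. Orange members had an edgeR adjusted p under 0.05 and grey ones did not. MRPL55 lies lowest at -0.42, 25 members were called lower, and MRPL3 was called higher.

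MRPL3 (ENSSSCG00000011179; chromosome 13, 984993 to 1024507, plus strand), a large subunit protein related to bacterial L3, went the other way. It had 35.4 to 48.2 CPM with a median of 40.6 in batch 2, against 20.3 to 44.9 with a median of 34.4 in batch 1. Of the 11 batch 1 libraries 6 lay below all batch 2 libraries, and 2 of them, saline 1 day animal S256 at 20.3 and psilocybin 1 week animal P246 at 23.6, were far below the rest. The log2 fold change was 0.29 ± 0.10 (edgeR adjusted p = 0.032). Leaving out any one of psilocybin 1 day animals P259 and P417, psilocybin 1 week animal P246 and saline 1 day animal S256 ended the call, with an edgeR adjusted p of 0.0520 to 0.0676. MRPL33 had a larger positive value of 0.43 that was not called. Without the 3 libraries its value was 0.42, and it was called higher (edgeR adjusted p = 0.031).

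The batch difference was larger once the 3 libraries were left out. Then 45 members were lower and 2 higher in batch 2, against 18.9% and 19.6% of 15088 genes, the median was -0.24, and all 25 members called lower in the full set were called lower again. The member score then ran between -0.23 and -0.10 in the 10 batch 2 libraries. In the 10 batch 1 libraries it ran between -0.05 and 0.20, without overlap. Animals S420 (0.43) and P427 (0.21) were the only batch 2 libraries above -0.10. Leaving them out therefore fixed this separation in advance. It is no further evidence of a batch difference. Neither are the median of -0.24, the 45 members called lower or the repeated calls, which rest on the same choice and the same libraries. Leaving out 1 animal at a time gave 16 called members without psilocybin 1 day animal P255 or psilocybin 1 week animal P246, and 40 without saline 1 day animal S420.

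Short genes leaned the same way between batches, and the members are short, with a median exon length of 2089 bases against 3883 for all tested genes. Over all genes the median log2 fold change, batch 2 over batch 1, was -0.17 up to 1000 bases, -0.13 between 1000 and 2000, -0.05 between 2000 and 4000 and 0.03 above 4000. The members had medians of -0.21, -0.21, -0.14 and -0.23 in the same classes (8, 23, 22 and 11 members). Negative values were found for 10 of the 11 members over 4000 bases, and for 44.6% of all genes of that length. Set against the 16.8% of all genes called lower in batch 2, the nuclear respiratory chain had 25 of 57 genes called lower (43.9%, median -0.26) and the assembly factors 6 of 21 (28.6%). The shares lay near or below that background for translation factors (3 of 16, 18.8%, with 1 higher), mitochondrially encoded genes (2 of 13, 15.4%, median -0.26) and cytosolic ribosomal proteins (5 of 46, 10.9%, median -0.25). All 7 microglia markers matched, none at 0 throughout, were called lower in batch 2 (median -0.51), with a summed level of 152 to 306 CPM in batch 2 and 230 to 371 CPM in batch 1. Of 3 blood cell markers tested 2 were called lower (median -1.44), and the 6 matched, none at 0 throughout, summed to 17.0 to 77.0 CPM in batch 2 and 25.7 to 505.5 CPM in batch 1. Astrocyte markers were mixed: of 7 matched, none at 0 throughout, 4 were called higher (up to 1.54). The other 3 had negative values (down to -0.17), with 0 called lower, and the median of all 7 was 0.27. Their summed level was 3962 to 5567 CPM in batch 2 and 2671 to 5713 CPM in batch 1. The part of gene length or cell composition in the members' difference was not tested.

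**Figure D5:**
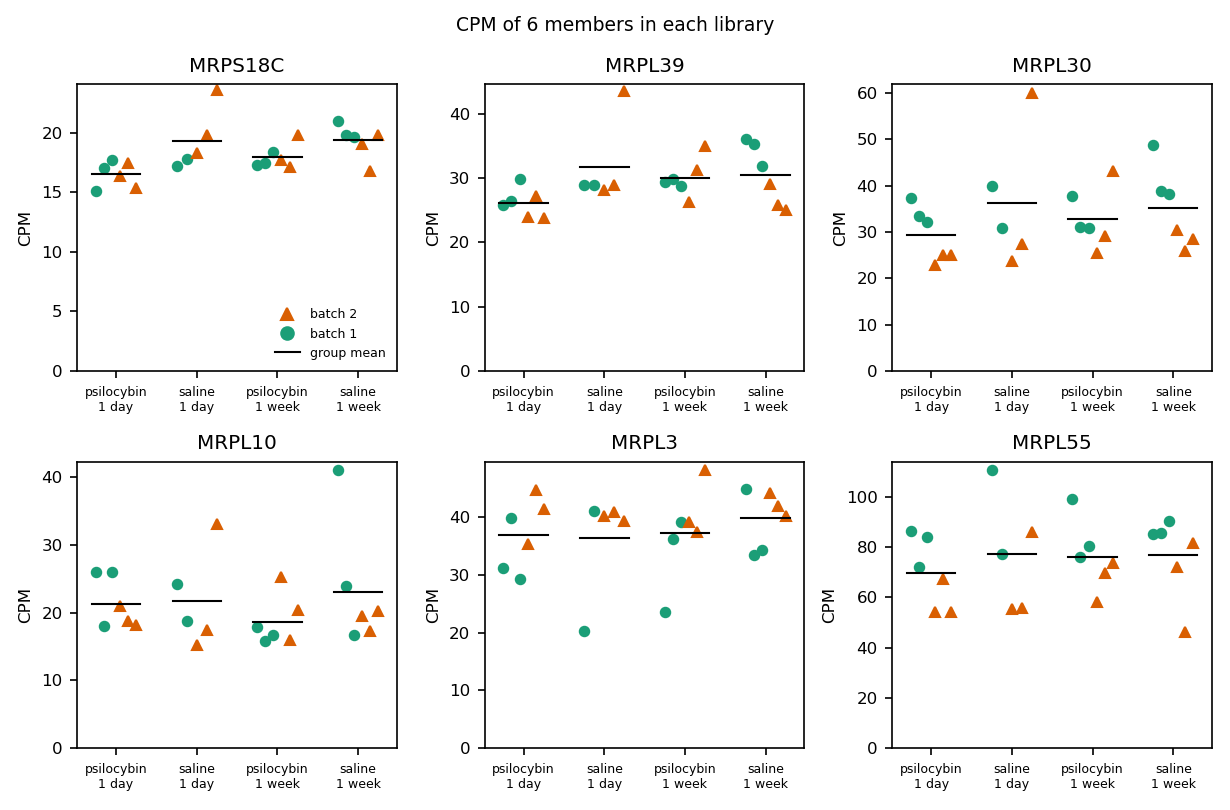
CPM of 6 members in each library by group, with psilocybin beside saline at each time. Triangles are batch 2, circles batch 1 and black lines group means. The single high values of MRPL39 (43.6) and MRPL30 (60.0) come from saline 1 day animal S420 and that of MRPL10 (41.0) from saline 1 week animal S245, and MRPL3 shows 2 low batch 1 libraries.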

How the data were processed

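The authors deposited expected counts per Ensembl gene for 23 libraries. Per the submitters' processing notes, fastp 0.20.0, STAR 2.6c and featureCounts 1.5.1 were used with the build susScr11. Per the file headers, reads overlapping several genes were shared in fractions and strand was ignored. Of the deposited expected counts 72.2% were whole at a tolerance of 0. They were rounded, which changed no library total by more than 0.0013%. Symbols were found for 14857 of 25880 identifiers, and gene positions are the spans of the table's exons. A genome sequence was not used here.

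Genes were kept by filterByExpr (minimum count 10, minimum total 15) and scaled by TMM. edgeR 4.0.16 (quasi-likelihood F test, R 4.3.3) was fitted to all genes and libraries with terms for the 4 groups and batch, with Benjamini-Hochberg adjustment. The script was tested on simulated data. CPM of members use the scaled totals, and log2 CPM a prior count of 2. Summed marker levels use the library totals without TMM scaling. Alternatives used DESeq2 1.42.0, limma-voom 3.58.1, other scalings and filters, each batch alone and libraries left out. Members were named if called (at most 10 per direction), if among the 6 smallest p of a treatment comparison, or if extreme in level or spread. The members, lists and rules were chosen with earlier results of these data known. Each animal gave 1 library, and animal numbers were not shared between groups, so samples were not paired. The series states 6 animals per group, and 1 saline 1 day animal was not analysed here.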

Additional observations from a re-analysis of the deposited data

Results flagged for a closer look

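For 34 named members, 3 scores and the members' summed share of counts in each of the 4 groups (152 tests), the highest or lowest animal was tested for a gap from its group (Dixon's ratio at the 95% level). Chance flags about 1 in 20 groups, and 13 were found. The tests share animals and correlated members, some of them named for their spread or small p in these data. The 13 can therefore not be judged against that share.

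Saline 1 day animal S420 was high for MRPL39 (43.6 CPM, others 28.1 to 29.0), MRPS14 (18.8 CPM, others 10.2 to 12.3) and MRPL33 (9.05 CPM, others 1.98 to 3.83). Saline 1 week animal S245 was high for MRPL10 (41.0 CPM, others 16.7 to 23.9), MRPL49 (165.7 CPM, others 89.2 to 115.0), MRPS26 (87.5 CPM, others 67.4 to 72.5) and MRPS7 (34.5 CPM, others 25.4 to 27.0). Both animals are among the 3 libraries highest on the first principal component of all genes.

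Psilocybin 1 day animal P255 was high for MRPL28 (137.1 CPM, others 79.3 to 99.7) and MRPS26 (91.7 CPM, others 66.1 to 75.5). Psilocybin 1 week animal P246 was high for MRPL12 (92.5 CPM, others 58.4 to 70.1), MRPL38 (57.2 CPM, others 40.7 to 46.5) and MRPS25 (45.0 CPM, others 31.3 to 36.1). Saline 1 day animal S256 gave the only low value, for MRPL3 (20.3 CPM, others 39.3 to 41.0).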

How the results depend on the processing

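No treatment or time comparison called a member under any alternative run, and the smallest adjusted p of any gene at 1 day was 0.0804, with DESeq2. Between 1 week and 1 day, DESeq2 called 1 gene within psilocybin and 1 within saline, and edgeR called 0 to 1 in each when leaving out 1 animal. The direction of the members' median log2 fold change depended on single libraries and batches. At 1 day it was 0.0231 without the 3 libraries and -0.155 to 0.0232 when leaving out 1 animal. At 1 week it was 0.106 in batch 2 alone and -0.0904 to 0.0343 leaving out 1 animal, and MRPL10 was 0.108 in batch 2 alone. For the difference of the effects it was -0.127 in batch 1 alone, 0.308 in batch 2 alone, -0.0749 without the 3 libraries and -0.0291 to 0.152 leaving out 1 animal. In batch 1 alone MRPL22 was -0.104, MRPL39 -0.155, MRPL52 -0.000599 and MRPL50 -0.0313. Over time within psilocybin it was -0.0797 in batch 1 alone, -0.0429 without the 3 libraries and -0.0513 to 0.0607 leaving out 1 animal. Over time within saline it was 0.0346 in batch 1 alone, 0.0116 without the 3 libraries and -0.136 to 0.0641 leaving out 1 animal. Members called between batches numbered 47 without the 3 libraries and 16 to 40 leaving out 1 animal. The cause of these shifts was not tested. Without dividing by length, the highest level was 25.6 times the lowest. No paired analysis was possible because animal numbers were not shared between groups. Each group held 5 or 6 animals, and MRPL33, with 23 to 128 counts per library, is the member most limited by depth.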
